A study of Homo sapiens with 5 samples.

Results

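The 7 genes described here are the distal-less homeobox genes DLX1, DLX2, DLX5 and DLX6, the long noncoding RNA DLX6-AS1 that lies over DLX6, and the zinc-finger factor genes SP8 and SP9. They were taken by name from the 32732 genes shared by the annotations of all 5 libraries. DLX factors switch on GABA synthesis genes and drive the migration and maturation of forebrain GABAergic interneurons and striatal neurons, which are born in the ganglionic eminences of the ventral telencephalon. Glutamatergic neurons of the cortex arise instead from the dorsal pallium, whose progenitors use EMX, PAX6 and NEUROG factors. Whether human dorsal progenitors also make some GABAergic neurons is debated. SP8 and SP9 act beside the DLX factors in interneurons that reach the olfactory bulb and cortex, and SP8 is in addition a patterning gene of early dorsal progenitors.

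Brain organoids were grown from the human embryonic stem cell line H9, which the labels call WT and which carried the AAVS-ChR2-EYFP insertion according to the study. They were measured at day 42 in vitro (D0) and at 2 and 4 months post transplantation (2MPT and 4MPT) into the prefrontal cortex (PFC) or hippocampus (HIP) of adult immunodeficient SCID mice. Single cells were profiled on the 10x 3' platform in 5 libraries, D0, HIP_2MPT, PFC_2MPT, HIP_4MPT and PFC_4MPT, each pooled from several organoids or grafted brains of 1 stem cell line. Each condition was thus 1 library, so the 2 sites stood in as the replicates of a stage, and p-values measured the spread between these pools only. D0 also differed from the grafts in dissociation enzyme, annotation and Cell Ranger version, which cannot be told apart from transplantation. After filtering, 34390 human cells remained, between 4885 in D0 and 8363 in PFC_4MPT, with 11192237 to 55892222 UMIs (unique molecules counted) per library. Median depth was 9847 UMIs per cell in D0 and 1253 to 2759 in the grafts, and library pairs shared 6 to 20 barcodes.

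The genes sit in pairs. On GRCh38 (GENCODE release 44), DLX1 (chr2:172084740-172089677, plus strand) and DLX2 (chr2:172099438-172102900, minus strand) are 9760 bases apart, and SP9 (chr2:174334954-174338500, plus strand) lies further along the same chromosome. DLX6 (chr7:97005553-97011040, plus strand) and DLX5 (chr7:97020396-97024950, minus strand) are 9355 bases apart, and SP8 is at chr7:20782279-20786886 on the minus strand. DLX6-AS1 (chr7:96955141-97014088, minus strand) overlaps DLX6 over 5488 bases on the opposite strand. The 10x 3' assay reads the RNA strand, but how the counting treated the overlap is not given in the sources used here, so values of DLX6 and DLX6-AS1 are uncertain to that extent.

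RefSeq (GRCh38.p14) held start-site windows for 5 of the 7 genes. The 250 bases before the start are shown for 3 of them, since DLX2 and DLX6-AS1 rose together across the grafts and SP8 followed another course. Capitals mark matches on either strand to 3 short motifs. These are the homeodomain core TAATTA, its variant with a final G in place of A, namely TAATTG or its reverse complement CAATTA, and the GC box that Sp-family factors bind, namely GGGCGG or its reverse complement CCGCCC.
DLX2 (chr2:172102901-172103150, minus strand): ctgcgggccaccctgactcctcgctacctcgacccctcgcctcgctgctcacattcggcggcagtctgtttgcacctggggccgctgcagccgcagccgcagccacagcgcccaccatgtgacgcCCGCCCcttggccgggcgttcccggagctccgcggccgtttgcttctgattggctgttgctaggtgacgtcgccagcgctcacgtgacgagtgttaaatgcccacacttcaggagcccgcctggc
SP8 (chr7:20786887-20787136, minus strand): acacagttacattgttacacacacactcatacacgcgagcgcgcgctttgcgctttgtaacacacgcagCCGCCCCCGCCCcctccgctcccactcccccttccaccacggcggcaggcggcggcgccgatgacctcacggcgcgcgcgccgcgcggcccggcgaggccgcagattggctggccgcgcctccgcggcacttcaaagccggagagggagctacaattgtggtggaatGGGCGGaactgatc
DLX6-AS1 (chr7:97014066-97014315, minus strand): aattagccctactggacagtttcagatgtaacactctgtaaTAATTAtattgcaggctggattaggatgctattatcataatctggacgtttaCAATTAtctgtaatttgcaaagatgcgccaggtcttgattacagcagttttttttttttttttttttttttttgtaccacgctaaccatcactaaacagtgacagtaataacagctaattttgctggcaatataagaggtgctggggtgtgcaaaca
The window of DLX6-AS1 held 1 TAATTA and 1 TAATTG, which 4.35% and 6.70% of 35116 windows of the same length held at least once. GC boxes numbered 3 at SP8 and 1 at DLX2, against at least 1 in 42.6% of all windows. The windows of DLX1 and DLX6 held none of the 3 motifs. These matches describe letters only and were not tested as binding sites.

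All 7 genes were low at 2MPT and, apart from SP8, high at 4MPT. DLX1, which acts early in interneuron commitment with its neighbour DLX2, gave 8.77 CPM (UMIs scaled to counts-per-million within the human cells of a library) in D0, then 0.715 in HIP_2MPT, 3.30 in PFC_2MPT and, at the later stage, 39.8 in HIP_4MPT and 89.5 in PFC_4MPT. DLX2 gave 17.1, 0.268, 3.83, 30.5 and 88.2 CPM across the same libraries. Both 4MPT libraries lay above both 2MPT libraries and above D0 for this pair. DLX5, a later-acting factor that directly controls GABA synthesis genes, gave 25.8, 0.625, 2.71, 21.1 and 118 CPM. DLX6, the neighbour and partner of DLX5, rested on few molecules in the grafts, with 398, 1, 7, 73 and 174 UMIs in all or 7.12, 0.0893, 0.462, 3.40 and 10.3 CPM. DLX6-AS1, which is transcribed from the same locus and marks GABAergic lineages, gave 58.5, 0.0893, 2.11, 35.0 and 107 CPM. For this DLX5 and DLX6 locus D0 lay between the 4MPT libraries and not below them. SP9 gave 4.44, 0.268, 0.793, 7.83 and 30.6 CPM, in the same order as DLX1 and DLX2. SP8 was different, with 19.6 CPM in D0, 0.536 and 3.04 in the HIP and PFC grafts at 2MPT, and 2.28 and 8.78 at 4MPT. Its D0 value was the highest of the 5, and its 2MPT and 4MPT values overlapped across sites though not within a site.

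**Figure D1:**
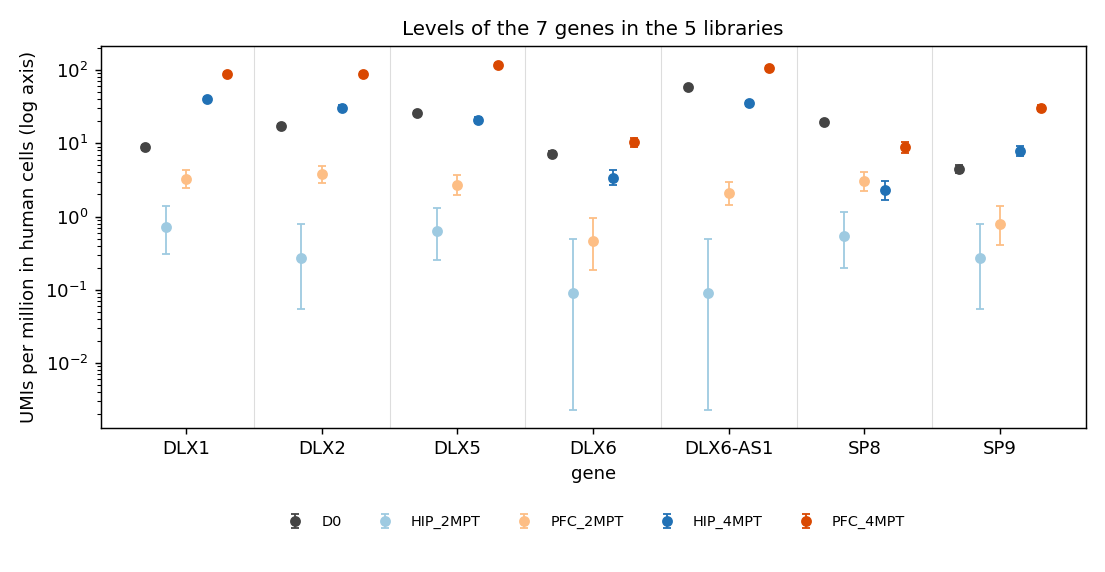
CPM in human cells (log axis) for each of the 7 genes in each library, with exact 95% Poisson intervals that cover counting error only. For 6 genes both 4MPT points lie above both 2MPT points, while for SP8 the HIP_4MPT point (2.28) lies below the PFC_2MPT point (3.04) and D0 is highest (19.6).

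Tested with edgeR's quasi-likelihood test on the summed counts of the 5 libraries, 6 of the 7 genes were higher at 4MPT than at 2MPT, where 2.40% of 19074 genes tested were called in either direction and 1.85% were called higher. The log2 difference was 5.96 ± 0.78 (SE) for DLX6-AS1 (FDR 0.0033), 5.39 ± 0.82 for DLX5 (FDR 0.00724) and 5.00 ± 0.59 for DLX1 (FDR 0.00188). For SP9, DLX2 and DLX6 it was 5.17 ± 0.73, 4.83 ± 0.76 and 4.57 ± 0.74. SP8 did not pass, at 1.63 ± 0.72 (FDR 0.346), but with graft site as a block it did (1.81 ± 0.53, edgeR FDR 0.0368), and within each site its CPM was higher at 4MPT. This fit had 2 residual degrees of freedom, and without PFC_4MPT none of the 7 genes passed in edgeR (FDR 0.111 to 0.916), although the 6 log2 differences stayed between 3.51 and 4.88. Over all genes that fit still called 32, and 2103 had an unadjusted p under 0.05. Summed UMIs cannot tell fewer cells of a type from less RNA per cell.

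Against D0, all 7 genes were lower at 2MPT, where 48.3% of genes were called in either direction and 21.1% were called lower. The fall was 2.41 on the log2 scale for DLX1 (edgeR FDR 0.00888), 3.74 for SP8 (FDR 0.00314) and 5.95 for DLX6-AS1 (FDR 0.000234). D0 was 1 library and was assumed to vary like the grafts, so these FDRs take their spread from the 2 graft pairs alone. At 4MPT only DLX1 was higher than in D0 (log2 difference 2.60 ± 0.65, edgeR FDR 0.00733) and only SP8 was lower (-2.12, FDR 0.0344), where 50.1% of genes were called and 28.7% were called higher. DLX6-AS1 differed from D0 by 0.0079 (FDR 0.994) and DLX6 by -0.34 (FDR 0.678), and DLX5 changed sign without PFC_4MPT (1.16 to -0.57). The DLX1 call was lost without PFC_4MPT (edgeR FDR 0.0958) and the SP8 call without HIP_4MPT (edgeR FDR 0.145). With so high a share of called genes these counts say little about the 7 genes in particular.

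PFC grafts had higher CPM of all 7 genes than HIP grafts at both stages, by values that passed for 3. These sums do not tell more cells of a type from more RNA per cell. With stage in the fit and 1 residual degree of freedom, the log2 difference of PFC over HIP was 2.45 ± 0.38 for DLX5 (edgeR FDR 0.00055), 2.13 ± 0.39 for DLX2 (FDR 0.0053) and 2.10 ± 0.40 for DLX6-AS1 (FDR 0.00844), where 0.0876% of 17121 genes were called (0.0701% higher in PFC and 0.0175% lower). DLX1, SP9, SP8 and DLX6 gave 1.54, 1.94, 2.20 and 1.78, with FDR 0.0876 to 0.894. Host barcodes also held UMIs of the 7 genes on the human reference, with 150 in PFC_2MPT and 542 in PFC_4MPT against 2 in HIP_2MPT and 31 in HIP_4MPT. Their part in this result was not tested. On the joint reference the same 3 genes passed, with log2 differences of 2.51, 2.12 and 2.10. The number of the 7 genes that passed ranged from 0 without stage in the fit to 6 without the low-count filter.

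Cells with a UMI of at least 2 of the 5 DLX genes, counting DLX6-AS1, are called carriers here. SP8 and SP9 were not used to choose them. Carriers numbered 381 of 4885 cells in D0 (7.80%, 95% exact binomial interval 7.06% to 8.59%), 3 of 8277 in HIP_2MPT (0.0362%) and 24 of 5952 in PFC_2MPT (0.403%). At 4MPT they numbered 328 of 6913 in HIP_4MPT (4.74%) and 1117 of 8363 in PFC_4MPT (13.4%, interval 12.6% to 14.1%). Depth differed, so each cell with at least 1000 UMIs was also thinned to 1000 UMIs, and shallower cells were dropped. Carriers then made up 2.45% of 4603 cells in D0. In the HIP and PFC grafts they made up 0.0151% of 6642 and 0.280% of 5719 at 2MPT, and 2.80% of 6742 and 9.16% of 7381 at 4MPT. D0 and HIP_4MPT changed places on thinning, and their thinned intervals overlapped (2.03% to 2.94% and 2.42% to 3.23%). In cell classes that should lack the genes, carriers made up 2 of 404 choroid-plexus-like cells in D0 (0.495%, median depth 14236.5 UMIs) and 0.837% of glutamatergic-neuron-like cells in PFC_4MPT (median depth 1764 UMIs). Such shares were not low throughout. In D0, 21 of 255 glutamatergic-neuron-like cells were carriers (8.24%, median depth 4092 UMIs), and 1.83% of 219 after thinning. The PFC_2MPT share of 0.403% lay below those shares, but none of the 3580 glutamatergic-neuron-like cells of that library was a carrier. Median depth in carriers and other cells was 8579 and 9912 UMIs in D0, 3034.5 and 2749 in HIP_4MPT, and 1986 and 1821 in PFC_4MPT.

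The DLX genes shared cells in the libraries with more than 20 DLX UMIs. Carriers held 92.5% of all DLX UMIs in D0, 91.9% in HIP_4MPT and 87.8% in PFC_4MPT, and cells with all 5 DLX genes numbered 61, 35 and 32. At 2MPT carriers held 86.2% of 188 DLX UMIs in PFC_2MPT but 35% of only 20 in HIP_2MPT. Carriers were chosen by UMIs of these same genes, so the rule itself raises these shares and they only describe the carriers. Over the 10 DLX gene pairs, cells thinned to 1000 UMIs carried both genes 7.10 to 14.97 times as often as the product of the 2 shares in D0 (median 11.5), 13.9 to 27.2 times in HIP_4MPT (median 19.4) and 4.39 to 6.77 times in PFC_4MPT (median 4.79). DLX1 and DLX2 met in 15 thinned D0 cells where the product gave 1.02, in 70 HIP_4MPT cells where it gave 4.07, and in 176 PFC_4MPT cells where it gave 35.0. DLX5 and DLX6-AS1 met in 45, 68 and 277 cells against products of 3.65, 2.85 and 51.1. The ratio falls as a gene is found in more cells, so it was not compared between libraries. In HIP_2MPT at most 1 thinned cell carried any pair.

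**Figure D2:**
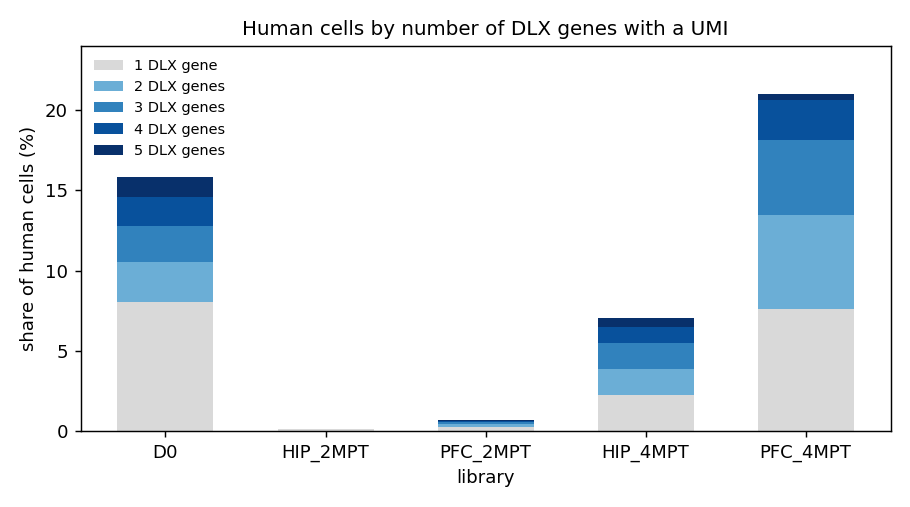
Share of human cells (y axis, %) in each library with a UMI of 1, 2, 3, 4 or 5 of the DLX genes, stacked, with 1 gene in grey and carriers (2 or more) in blue. Carriers reach 7.80% in D0, 4.74% in HIP_4MPT and 13.4% in PFC_4MPT, and are 0.0362% and 0.403% in HIP_2MPT and PFC_2MPT.

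The cell classes of carriers depended on the library, on depth and on how finely cells were clustered. Classes were clusters of all cells, named from fixed marker genes that did not include the 7 genes. The clustering itself did use them, so counts by class are a description. In PFC_4MPT, 813 of 1117 carriers (72.8%) were inhibitory-neuron-like and 130 were in an unnamed cluster with both cycling and inhibitory genes. That cluster was led by GAD2, DLX1, NRXN3 and DLX2, which include genes used to choose carriers, and held 969 CPM of TOP2A over all libraries. In HIP_4MPT these classes held 214 of 328 carriers (65.2%) and 63, and in PFC_2MPT 15 of 24 and 5. Of the 3 carriers in HIP_2MPT, 1 was inhibitory-neuron-like. Glutamatergic-neuron-like cells held 27 carriers of 3226 cells in PFC_4MPT and 0 of 3223 in HIP_4MPT, where the exact 95% interval reached 0.114%. In D0 the inhibitory-neuron-like class was small, and 83 of its 86 cells were carriers. Before thinning, however, the most carriers (158 of 381, 41.5%) lay in a Cajal-Retzius-like cluster led by NTS, SST, CALB2 and EBF2. A further 34 D0 carriers were in an unnamed MTRNR2L-led cluster, where the median depth of D0 cells was 1828.5 UMIs. Another 33 were intermediate-progenitor-neuron-like, 23 cycling, 21 glutamatergic-neuron-like and 19 radial-glia-like. With finer clusters (resolution 1.6 in place of 0.8) 105 of the 158 moved to an inhibitory-neuron-like cluster, and 49.1% of D0 carriers were then in that class, against 41.7% of PFC_2MPT carriers and, at 4MPT, 54.6% (HIP) and 66.7% (PFC). The unnamed cycling and inhibitory cluster then held 41.7%, 29.9% and 17.5% of the carriers of these 3 grafts and 0.787% of those of D0. The class names are loose in places. Of the 1695 radial-glia-like cells of D0, 478 were in a cluster led by S-phase genes such as E2F1 and MCM3. Of its 366 intermediate-progenitor-neuron-like cells, 114 were in a cluster led by TUBB3, SLC12A5 and STMN2, which are neuron genes. Over all libraries, Cajal-Retzius-like cells held 911 CPM of NEUROD6 and 213 of SLC17A7, both glutamatergic markers, and 42.4 of RELN. Glutamatergic-neuron-like cells held 289 and 73.3 CPM of the same glutamatergic markers.

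**Figure D3:**
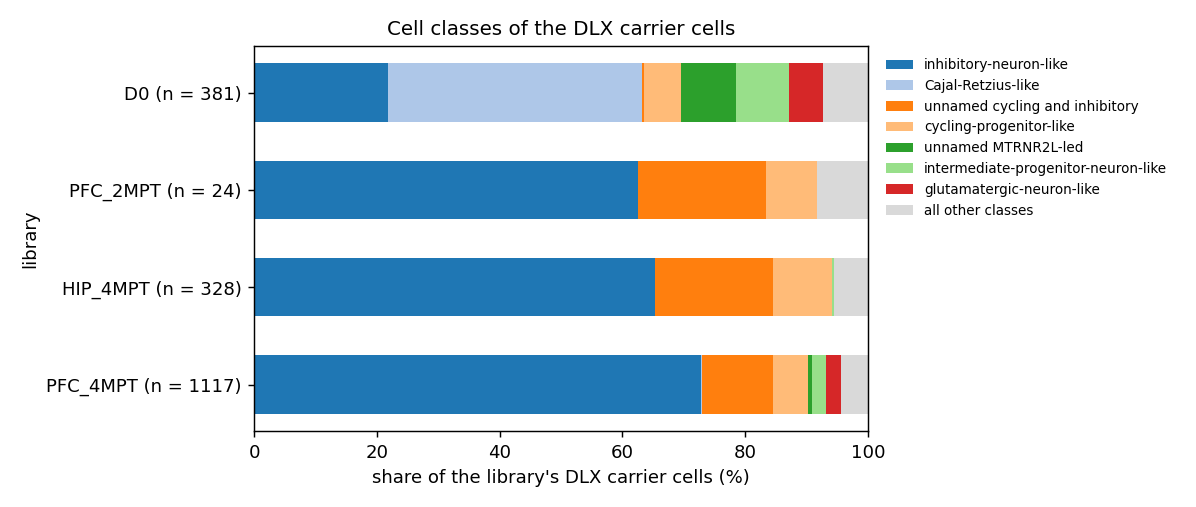
Share of each library's carriers (x axis, %) by cell class, for the 4 libraries with more than 3 carriers. Inhibitory-neuron-like cells (dark blue) hold 62.5% to 72.8% of carriers in the 3 grafts and 21.8% in D0 at resolution 0.8, where Cajal-Retzius-like cells (light blue) hold 41.5%. Cells are not thinned, and D0 is the deepest library.

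Within the Cajal-Retzius-like cluster of D0, carriers stood apart from the other 956 cells. SST, an interneuron neuropeptide, was at 641 CPM in the 158 carriers and 23.5 in the others, SIX3, a ventral forebrain and striatal factor, at 486 and 22.2, and GAD1, which makes GABA, at 120 and 7.37. EBF2 and RELN, markers of Cajal-Retzius cells, were at 27.9 and 15.6 CPM in carriers and 94.2 and 48.4 in the others. NEUROD6, a factor of dorsal glutamatergic neurons, was at 259 and 1055. These values come from 1 library and have no replicate check.

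The DLX1 and DLX2 pair was also found where the DLX5 and DLX6 locus was lower or near 0. In the OLIG1-EGFR oligodendrocyte-progenitor-like cells of HIP_4MPT, DLX1 and DLX2 gave 17.97 and 13.02 CPM while DLX5 and DLX6-AS1 each gave 0.620 and DLX6 gave 0. The same class in PFC_2MPT gave 22.8 and 13.7 CPM of DLX1 and DLX2, from 5 and 3 UMIs in 68 cells, and no UMI of the other 5 genes. In PFC_4MPT, with 638 such cells, DLX1 and DLX2 gave 36.4 and 37.01 CPM, and DLX5, DLX6 and DLX6-AS1 gave 9.68, 2.28 and 11.4. In the inhibitory-neuron-like cells of HIP_4MPT, DLX1, DLX2, DLX5 and DLX6-AS1 gave 692, 499, 418 and 878 CPM. The 5 DLX genes together gave 2586 CPM in these 249 cells and 2389 CPM in the 1073 inhibitory-neuron-like cells of PFC_4MPT. The part of the number of such cells in the difference between sites was not tested. In PFC_4MPT, DLX5 gave 11.9 CPM in glutamatergic-neuron-like cells and 714 in inhibitory-neuron-like cells. The lowest of 19 cluster sums in that library held 26.6 CPM of the 5 DLX genes together, against 0.889 in HIP_4MPT. PFC_4MPT also had the highest median mitochondrial share, 7.31% against 2.35% to 3.77% in the other libraries. Outside the inhibitory classes DLX was not low throughout. Cycling-progenitor-like clusters held 512 and 429 CPM of the 5 DLX genes in PFC_4MPT, and 231 and 107 in HIP_4MPT. The S-phase radial-glia-like cluster held 382 and 51.6 CPM in these libraries. Of cycling-progenitor-like cells, 63 of 227 were carriers in PFC_4MPT (27.8%) and 32 of 241 in HIP_4MPT (13.3%). The part of the lowest sum or of the mitochondrial share in the low DLX counts of clusters such as the glutamatergic-neuron-like ones was not tested.

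Carriers were set against the other cells of the same library, with cells summed by library and library as a block. This addresses whether cells with DLX UMIs carried ventral or dorsal genes. Summed over D0, PFC_2MPT, HIP_4MPT and PFC_4MPT, GABA genes were higher and dorsal pallium genes lower in carriers. GAD2, the synaptic GABA-making enzyme, was at 87.5 CPM in carriers and 1.27 in other cells in D0, 1694 and 1.48 in PFC_2MPT, 1087 and 6.83 in HIP_4MPT, and 1095 and 51.6 in PFC_4MPT. GAD1 was at 93.0 and 11.03, 80.02 and 0.269, 119 and 3.04, and 90.5 and 8.39. Every library showed the same direction for both enzymes. In edgeR, 1.49% of 15018 genes were called, 0.433% higher and 1.06% lower. Of the 5 genes of GABA synthesis and transport, 3 were higher: GAD2 (log2 difference 6.74 ± 0.76), SLC32A1, the vesicular GABA transporter (4.84 ± 0.49), and GAD1 (4.14 ± 0.54). The list's median was 4.14, against -0.068 over all genes.

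Of the 15 dorsal pallium genes, 10 were lower and 1 was higher, with a list median of -1.77. BHLHE22, a factor of cortical projection neurons, was lower by -2.47 ± 0.37, and LHX2 and EMX2, factors of dorsal progenitors, by -2.04 ± 0.29 and -1.54 ± 0.20. NEUROD6 was at 153 CPM in carriers and 290 in other cells in D0, 0 and 265 in PFC_2MPT, 5.37 and 39.9 in HIP_4MPT, and 17.4 and 79.2 in PFC_4MPT, so it was lower in all 4 libraries. The exception was PAX6, a dorsal progenitor factor that some olfactory bulb interneurons also use, which was higher in carriers by 1.83 ± 0.34. It was at 312 and 224 CPM in D0, 627 and 90.5 in PFC_2MPT, 253 and 67.1 in HIP_4MPT, and 301 and 55.7 in PFC_4MPT.

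Among ventral lists some genes passed, where 0.433% of all 15018 genes tested were called higher. List medians were 1.115 for interneuron factors, 0.582 for lateral, 1.444 for caudal and 0.242 for medial ganglionic eminence genes, against -0.068 over all genes. Of 9 tested interneuron factors around DLX 3 were higher, among them GSX2 and PBX3 (3.61 ± 0.45 and 1.39 ± 0.21), and GSX2 was also the only called gene of 6 tested lateral ganglionic eminence genes. Of 8 tested caudal ganglionic eminence and olfactory bulb genes, SCGN and PROX1 were higher (4.28 ± 0.35 and 2.14 ± 0.30). Of the 7 medial ganglionic eminence genes, only 3 had counts enough to test, and SOX6 was higher (1.22 ± 0.22). The defining genes of that territory were near absent: in the carriers of these 4 libraries NKX2-1 had no UMI, LHX6 had 2, both in HIP_4MPT, and LHX8 had 1 in D0 and 1 in HIP_4MPT. Of 7 tested astrocyte genes 5 were lower, and none of 6 cycling and 8 EGFR-OLIG progenitor genes was called. Of the 10 diencephalon and hypothalamus genes only TCF7L2 had counts enough to test, and it did not pass (-1.24 ± 0.26, edgeR FDR 0.0502).

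By the fixed rule on size, the genes named as higher in carriers were GAD2, NRXN3 (a presynaptic adhesion gene, 4.90 ± 0.62), ST8SIA5, SLC32A1, AC008056.1, BEST3, PDZRN3, SCGN, GAD1 and SST (3.99 ± 0.45). Those lower were OBI1-AS1, DEC1, CXCL14, SPARCL1, HEPACAM, AC119868.2, TRH, PRSS12, AC069437.1 and APOE, from -3.79 ± 0.40 to -2.60 ± 0.55. SST was at 370 CPM in D0 carriers and at most 10.4 in graft carriers. Not every gene was measurable in each library. AC008056.1, BEST3, DEC1, AC119868.2 and AC069437.1 were at 0 CPM in both D0 carriers and other D0 cells. OBI1-AS1 and HEPACAM were at 0 in D0 carriers and 0.0595 and 0.0198 CPM in the others. In PFC_2MPT, SLC32A1 had 1 UMI in carriers and 0 in other cells. SPARCL1, HEPACAM and APOE are astrocyte genes. Without PFC_2MPT, which had 24 carriers, no gene was called in edgeR (1733 had an unadjusted p under 0.05), while the log2 difference of GAD2 stayed between 5.92 and 7.60 whichever library was left out. The thinned sums, where PFC_2MPT with 16 carriers was also left out, gave 230 genes higher and 439 lower. Without D0 the same test called 1354 genes higher and 1847 lower.

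**Figure D4:**
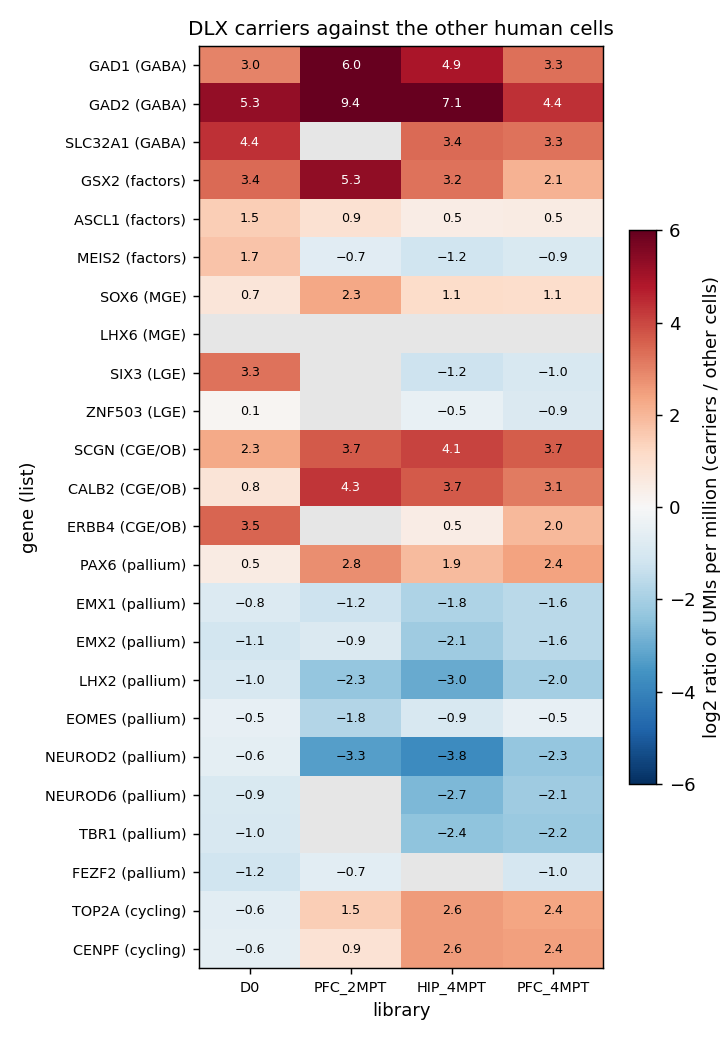
Log2 ratio of CPM in carriers over the other human cells of the same library, for genes of the fixed lists, with grey where either side had no UMI or the total was at most 3, and colours that end at 6. GAD1 and GAD2 are higher in carriers in all 4 libraries and EMX1, EMX2, LHX2 and NEUROD2 lower, while SIX3, MEIS2 and the cycling genes TOP2A and CENPF change direction between D0 and the grafts.

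D0 carriers and graft carriers differed from each other, which was tested as the difference of the 2 carrier effects, an analysis added after seeing the data. D0 gave a single pair of sums, and its error was assumed to match that of the grafts. Depth differed too, and the carrier rule is easier to meet in deeper cells. Median depth was 8579 UMIs in D0 carriers, 3034.5 in HIP_4MPT carriers and 1986 in PFC_4MPT carriers. Far fewer genes were called on thinned sums, which also left out PFC_2MPT. Of 15018 genes, 14% were called for this difference. SIX3 was at 326 CPM in D0 carriers and 33.3 in other D0 cells, but at 0, 3.58 and 1.55 in the 3 graft carrier sums. MEIS2, a factor of lateral ganglionic eminence neurons that cortical neurons also use, was at 391 and 118 in D0, 760 and 1232 in PFC_2MPT, 701 and 1612 in HIP_4MPT, and 463 and 872 in PFC_4MPT. The carrier effect in grafts was below that in D0 for SIX3 (-4.45 ± 0.47) and MEIS2 (-2.54 ± 0.37), and above it for CALB2 (3.41 ± 0.40) and PAX6 (2.01 ± 0.33). All 6 cycling genes also differed, and of these TOP2A was at 168 and 262 CPM in D0, 440 and 155 in PFC_2MPT, 692 and 115 in HIP_4MPT, and 312 and 59.1 in PFC_4MPT.

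In that same fit the grafts had their own carrier effect, with 9.23% of genes higher (1386) and 12.2% lower (1834). The fit left few residual degrees of freedom, so these edgeR counts rest largely on a spread pooled over genes. DESeq2 called 613 higher and 806 lower. The thinned sums, which left out PFC_2MPT, gave 592 and 803 of 12399 genes tested. In the unthinned edgeR fit 14 of 15 dorsal pallium genes were lower and PAX6 was higher. In it 3 of 5 GABA genes and all 6 cycling genes were higher, and 5 of 8 caudal ganglionic eminence and olfactory bulb genes were higher and ETV1 was lower.

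A second comparison was held within neuron-like classes (glutamatergic, intermediate-progenitor, inhibitory and Cajal-Retzius-like), with 295 carriers in D0, 215 in HIP_4MPT and 868 in PFC_4MPT. It leaves out PFC_2MPT, which had 15. In edgeR 5 genes were higher (0.0350% of 14297, with 0.0699% called in either direction), namely SLC32A1 (4.38 ± 0.40), IL1RAPL2 (4.15 ± 0.34), SCGN (4.12 ± 0.34), AC125613.1 (3.46 ± 0.24) and SOX6 (2.63 ± 0.19). The 5 lower genes were the dorsal neuron factors NEUROD1 (-2.76 ± 0.26), TBR1 (-2.60 ± 0.23), NEUROD6 (-2.58 ± 0.25) and NEUROG2 (-2.01 ± 0.20), and ZBTB18 (-1.93 ± 0.17). The classes were named from markers that include SLC32A1, SCGN, TBR1, NEUROD6 and NEUROG2. Of the 868 PFC_4MPT carriers here, 813 were inhibitory-neuron-like. The calls of those 5 marker genes thus in part restate how the classes were chosen. With D0 and grafts given their own effects, 13 of 15 dorsal pallium genes were lower in graft carriers, where 9.48% of genes were called lower (1355) and 6.46% higher (924). This fit left even fewer residual degrees of freedom than the one over all cells. DESeq2 called 318 lower and 342 higher for that graft effect. The fit with a single carrier effect for all libraries, which gave the 5 and 5 calls, was repeated with a library left out. Without HIP_4MPT it called 4 genes higher and 0 lower (731 at an unadjusted p under 0.05 in edgeR). Without PFC_4MPT it called 1 and 0 (545), and without D0 1070 and 1116. All 10 calls are lost with a human share over 0.9 per cell (1345 genes at an unadjusted p under 0.05), with log2 differences that moved little for SOX6 (2.62) and TBR1 (-2.59). No doublet caller was run. Among cells thinned to 1000 UMIs, those with both a GABA and a glutamatergic marker made up 5.31% of D0 carriers (6 of 113), 0.529% of HIP_4MPT carriers (1 of 189) and 3.11% of PFC_4MPT carriers (21 of 676). A glutamatergic marker, alone or with others, was found in 13, 2 and 29 of these carriers (11.5%, 1.06% and 4.29%), and in 24.1%, 23.7% and 28.6% of the other cells. A GABA marker alone or with others was found in 37.2%, 72.0% and 62.4% of the carriers, and in 2.94%, 1.74% and 7.86% of the other cells.

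SP9 went with the DLX genes and SP8 did so only in part. SP9 had a UMI in 28.1% of D0 carriers, 20.8% of PFC_2MPT carriers, 34.1% of HIP_4MPT carriers and 30.3% of PFC_4MPT carriers. In cells with no DLX UMI those shares were 0.535%, 0.0338%, 0.0622% and 0.469%, and all 3 HIP_2MPT carriers had SP9. SP8 had a UMI in 46.7% of D0 carriers but also in 11.3% of D0 cells with no DLX UMI. In the 4MPT grafts it was in 7.01% (HIP) and 8.33% (PFC) of carriers against 0.311% and 0.272% of cells with no DLX UMI. Counted the other way, 107 of 147 SP9 cells in D0 were carriers, 112 of 120 in HIP_4MPT and 338 of 420 in PFC_4MPT, whereas only 178 of 720 SP8 cells in D0 were. Of the 41 SP8 cells in PFC_2MPT 4 were carriers, of the 45 in HIP_4MPT 23 were, and of the 129 in PFC_4MPT 93 were. These shares were not thinned, and depth differed between libraries. In thinned D0 cells SP8 met each DLX gene 2.78 to 4.69 times as often as the product of their shares, below the DLX pairs (7.10 to 14.97). In thinned PFC_4MPT cells it did so 3.79 to 6.48 times, near the DLX pairs (4.39 to 6.77). HIP_4MPT had only 14 SP8 cells after thinning. In CPM of the carriers, SP9 was at 37.3 in D0, 92.3 in PFC_2MPT, 141 in HIP_4MPT and 163 in PFC_4MPT. SP8 was at 78.5, 79.1, 22.1 and 42.4 in the same order. The PFC_2MPT values rest on 7 UMIs of SP9 and 6 of SP8.

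The 466 D0 cells with SP8 and no DLX UMI lay in several classes. By class, 186 were radial-glia-like (a class that includes the S-phase cluster), 135 cycling, 55 choroid-plexus-like and 44 Cajal-Retzius-like. The 466 cells held 156 CPM of EMX1, 216 of EMX2, 477 of LHX2, 235 of NEUROG2 and 214 of FEZF2, and 0.350 of GAD2 and 8.06 of GAD1. D0 carriers held 79.5, 88.8, 201, 89.3 and 79.6 CPM of the 5 dorsal genes, and 87.5 and 93.0 of the GABA enzymes. Each dorsal gene was thus higher, and each enzyme lower, in the SP8 cells without DLX than in carriers, with no replicate check. This contrast was not particular to SP8 cells. All D0 cells that were not carriers, which include these 466, held 143, 191, 396, 173 and 183 CPM of the same dorsal genes. They held 1.27 CPM of GAD2 and 11.03 of GAD1. Whether the SP8 cells differed from other cells without DLX was not tested.

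Across 80 sums of cells by cluster and library (each of at least 50 cells), the genes whose levels ran most like the summed 5 DLX genes included GAD2 (Pearson r 0.876), SP9 (0.831), GAD1 (0.824), C11orf96 (0.823), PDZRN3 (0.781), GSX2 (0.756), PFN2 (0.737), SUB1 (0.714) and NRXN3 (0.678). They were ranked among 10045 genes on log2(CPM + 1). SP8 itself had r 0.587. At the other end EMX2 had r -0.701 and LHX2 -0.611. The sums share libraries and depth and the clusters were built from these genes, so the values describe likeness only. In the sum with the highest DLX CPM of each library, GAD2 was at 241 CPM in D0, 1284 in HIP_4MPT and 1103 in PFC_4MPT, and NEUROD6 at 74.0, 4.61 and 17.4.

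**Figure D5:**
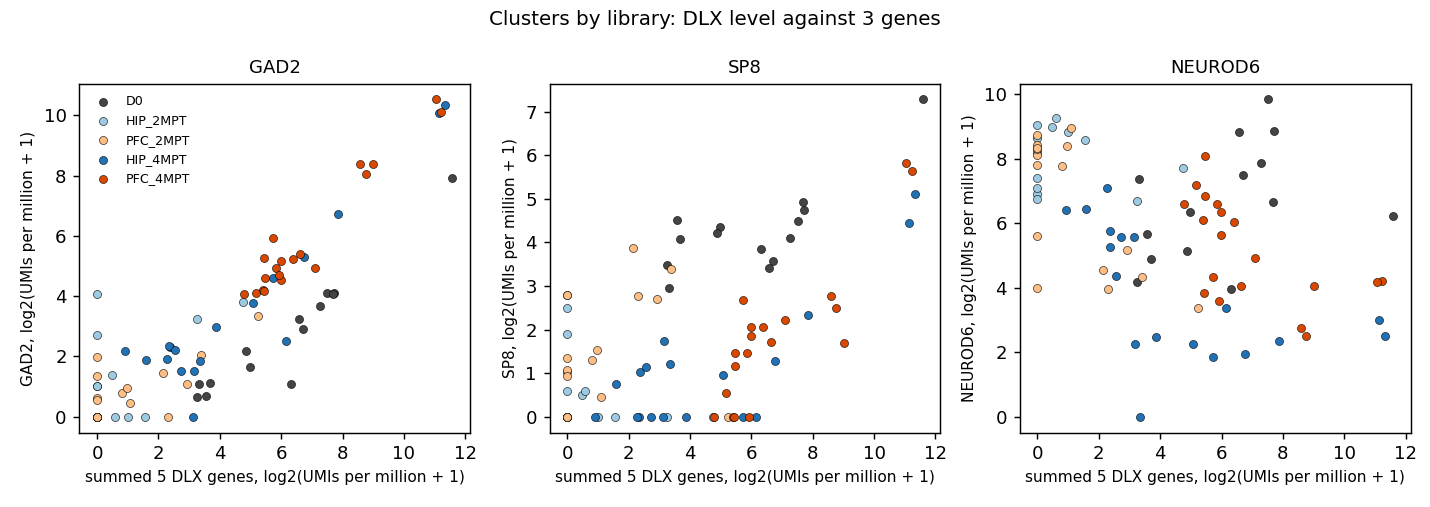
Each point is 1 cluster in 1 library (80 in all), with the summed 5 DLX genes on the x axis and GAD2, SP8 or NEUROD6 on the y axis, all as log2(CPM + 1). GAD2 climbs with the DLX sum (r 0.876), SP8 is high in many D0 points at middling DLX levels (r 0.587), and NEUROD6 is low where DLX is highest in the grafts.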

How the data were processed

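The authors aligned the reads with Cell Ranger and deposited UMI counts per gene and cell barcode. The matrix headers name Cell Ranger 3.1.0 for D0 and 5.0.0 for the grafts, the submitters' processing notes name Cell Ranger 3.1 and R 4.1.1, and the annotations hold 33538 and 36601 genes. The grafts were also deposited as counts on a joint human and mouse reference. Cells were kept with over 500 UMIs, over 500 genes, log10 of the genes over 0.8 times log10 of the UMIs, a mitochondrial share under 0.15 and, in grafts, a human share of UMIs over 0.8. No doublet caller was run. Clusters came from sctransform 0.4.2 and reciprocal PCA integration in Seurat 5.3.0 at resolution 0.8, and were named from fixed markers.

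Counts were summed per library, or per library and carrier status, and tested with edgeR 4.0.16 (quasi-likelihood test, TMM scaling, filterByExpr, Benjamini-Hochberg FDR under 0.05) in R 4.3.3, after the script was tested on simulated data. DESeq2 1.42.0, other scaling, filters, carrier definitions, depths and left-out libraries served as alternatives. Carrier sums of HIP_2MPT (3 cells) were left out of the fits. Intervals are exact binomial or Poisson at 95% and cover counting error only. The genes named in the carrier comparisons were, on each side, the 10 that passed with the greatest log2 difference and a mean of 10 CPM or more, and the 10 most correlated genes for likeness, beside the 7 genes and the fixed lists. Results of some genes of the lists are not reported here. The 7 genes and the lists were chosen with earlier results of these data known. Plots were drawn with matplotlib 3.10.9.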

Additional observations from a re-analysis of the deposited data

Results flagged for a closer look

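The effect of being a DLX carrier differed between the grafts and D0 for 2110 genes over all cells and for 1045 within neuron-like classes, by edgeR's interaction term, an analysis chosen after seeing the data. D0 was 1 library that also differed from the grafts in dissociation, annotation and software, and these cannot be told apart from grafting. Its cells were also deeper, which makes the carrier rule easier to meet, and far fewer genes were called on thinned sums. Genes of the lists that passed in both fits are given here as the carrier log2 difference in grafts minus that in D0, over all cells. It was positive for CALB2 (3.41), CENPF (2.97), HMGB2 (2.77) and PAX6 (2.01). It was negative for SIX3 (-4.45), MEIS2 (-2.54), ERBB4 (-2.52), NPAS1 (-2.24), NEUROD2 (-2.005), SLC1A3 (-1.49), LHX2 (-1.24) and ZFHX3 (-1.23).

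Mouse counts on the joint reference were outside every comparison. In barcodes assigned to the host, the mouse forms of the 7 genes had 468 UMIs in PFC_2MPT, 20 in HIP_4MPT and 1037 in PFC_4MPT, against 0 in HIP_2MPT. In human cells the mouse forms had 1, 3, 4 and 64 UMIs in HIP_2MPT, PFC_2MPT, HIP_4MPT and PFC_4MPT. On the human reference, host barcodes held 150 UMIs of the 7 genes in PFC_2MPT and 542 in PFC_4MPT, against 2 and 31 in the HIP grafts. On the joint reference the human cells of PFC_4MPT held 1678 UMIs of DLX6-AS1, against 1812 on the human reference.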

How the results depend on the processing

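The number of the 7 genes called between 4MPT and 2MPT ranged from 0 to 7 as 1 library was left out, and all 7 stayed lower at 2MPT than in D0 (7 to 7). With graft site as a replicate block, SP8 was also called at 4MPT against 2MPT (log2 1.81), and the other calls did not change. Against D0 at 4MPT, 2 genes were called, 1 with DESeq2, 5 without the low-count filter and 1 to 5 with a library left out. There DLX5 ranged from -0.57 to 1.96 and DLX6 from -1.34 to 0.29, with the sign changed without PFC_4MPT and without HIP_4MPT respectively. DLX6-AS1 ranged from -1.02 to 0.64, and turned to -0.030 without the filter, -0.019 at a human share over 0.9 and -0.10 on the joint reference. For PFC against HIP, 3 genes were called, 1 with RLE size factors or over 1000 UMIs, 6 without the filter or at a human share over 0.9, and 0 without stage (132 genes at an unadjusted p under 0.05 in edgeR). Leaving out a library there left no residual degree of freedom, so it could not be fitted. Over all cells, 65 genes were higher and 159 lower in carriers. The counts were 157 and 259 with DESeq2, 274 and 727 without the filter, 42 and 27 for at least 1 DLX gene, 230 and 439 when thinned, and 0 and 0 for at least 3 DLX genes or without the library block (1628 and 685 at an unadjusted p under 0.05 in edgeR). RLE size factors gave 102 lower, leaving out glial and MTRNR2L-led clusters (chosen after seeing the data) 43 lower, and leaving out a library 0 to 1354 higher and 0 to 1847 lower. Within neuron-like cells 5 and 5 were called, against 184 and 120 with DESeq2, 422 and 662 without the filter, 218 and 224 for at least 1 DLX gene, 35 and 48 for at least 3, 206 and 282 when thinned, and 0 and 0 at a human share over 0.9 or without the library block (1345 and 356 at an unadjusted p under 0.05 in edgeR). Sums of under 20 carriers were left out, so over all cells the thinned and at-least-3 fits also lost PFC_2MPT, and within neuron-like cells the at-least-1 fit gained it. These settings therefore changed the libraries as well as the carrier rule or depth. Leaving out a library gave 1 to 1070 higher and 0 to 1116 lower. The interaction counts of 2110 and 1045 became 595 and 150 with DESeq2, 229 and 87 when thinned, and 506 within neuron-like cells at a human share over 0.9. Carriers with at least 1 DLX gene made up 15.8% of D0, 0.157% and 0.672% of HIP_2MPT and PFC_2MPT, and 7.03% and 20.985% of HIP_4MPT and PFC_4MPT, and with at least 3 genes in the same order 5.26%, 0%, 0.235%, 3.15% and 7.52%. Thinned shares were 2.45% in D0, 2.80% in HIP_4MPT and 9.16% in PFC_4MPT. The unthinned PFC_4MPT share of 13.4% was 14.5% at a human share over 0.9 and 14.8% over 1000 UMIs. At resolution 1.6 the inhibitory-neuron-like share of carriers was 49.1% in D0, 0% (HIP) and 41.7% (PFC) at 2MPT, and 54.6% (HIP) and 66.7% (PFC) at 4MPT. The cause of these changes was not tested.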
